A study of Mus musculus with 8 samples.

Results

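Genes of fatty acid synthesis, storage and oxidation were examined in hepatic stellate cells by RNA sequencing. The set is a list of 42 symbols covering lipogenic enzymes, lipid droplet proteins, lipases and the enzymes of mitochondrial beta-oxidation. Its members were found by matching the Ensembl identifiers of the count tables to these symbols. The part of the count tables read here holds 1933 gene rows common to all libraries. The annotated ones all lie on chromosome 1, and 1 of the 42 members has a row. That member is Acsl3 (ENSMUSG00000032883). The other 41 were not analysed here, so the values below describe Acsl3 and not the pathway. They are, for fatty acid synthesis, Srebf1, Acly, Acaca, Acacb, Fasn, Scd1, Scd2, Elovl1, Elovl5, Elovl6, Fads1, Fads2 and Me1. For glycerolipid assembly, storage and lipolysis they are Gpam, Agpat2, Lpin1, Dgat1, Dgat2, Pparg, Plin2, Plin3, Pnpla2, Lipe and Mgll. For oxidation they are Ppara, Ppargc1a, Cpt1a, Cpt2, Slc25a20, Acadvl, Acadl, Acadm, Acads, Hadha, Hadhb, Hadh, Acaa2, Eci1, Decr1, Etfa and Etfb. Of these, Acadl also lies on chromosome 1 but has no row, so the rows cover only part of that chromosome.

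The 8 libraries came, per the labels, from stellate cells of MASH livers (steatohepatitis with metabolic dysfunction) in male mice. The genotypes are AREL1HSC-KO (called KO, a knockout of the E3 ubiquitin ligase AREL1 labelled as specific to stellate cells) and AREL1fl/fl, in which the gene is floxed (called control), and each has 4 libraries. Both groups received Western diet (21% fat, 20% protein, 50% carbohydrate) from 4 weeks of age for 20 weeks, and the animals were analysed in week 24. The driver of the recombination, the mice per library and any pooling are not given in the sources used here. P-values therefore measure the spread between libraries, which may be technical.

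Fatty acids must be joined to coenzyme A before a cell can use them. The long-chain acyl-CoA synthetases, of which Acsl3 is one, carry out this step, and the acyl-CoA they make can be built into triglyceride and phospholipid or oxidised in mitochondria. ACSL3 sits in the endoplasmic reticulum and on growing lipid droplets, and it is known for feeding fatty acids into droplet lipids. Quiescent stellate cells are known for large droplets of retinyl ester and triglyceride, which they lose when they turn into myofibroblasts.

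Derived gene-assigned reads were 17619387 to 19663030 per control library and 19271004 to 25165289 per KO library. The shares of unmapped reads (1.14% ± 0.0701 in control and 1.52% ± 0.0557 in KO, SD, n = 4) did not overlap between the groups (exact permutation p = 0.0286, the smallest 4 against 4 can give, and 0.0714 after adjustment over 5 measures). The shares of reads outside annotated features (4.32% ± 0.0188 in control and 4.05% ± 0.101 in KO) did not overlap either, with the same exact permutation p and adjusted value. No batch or date is labelled, so genotype and any unlabelled batch cannot be told apart. Levels are given as CPM, read counts scaled to the TMM-adjusted library total. The TMM factors came only from the 420 genes kept by the low-count filter, not from the whole library. They were 0.980 to 0.996 in control and 1.004 to 1.020 in KO. Of 18 stellate cell markers only the collagen gene Col3a1 has a row, at 470.4 to 506.1 CPM in control and 437.9 to 439.8 CPM in KO, and the labelled cell type and the knockout of Arel1 were not checked. Markers of other cells had few rows. The 3 hepatocyte markers with a row of 19 listed summed to 0.343 to 0.627 CPM in control and 0.286 to 0.662 CPM in KO, with F5 and C4bp at 0. The 8 leukocyte markers of 26 summed to 2.73 to 3.83 and 3.33 to 3.97 CPM, with Xcl1 and Ctla4 at 0. Most of that sum was the dendritic cell gene Batf3, at 2.97 ± 0.355 CPM in control and 3.43 ± 0.399 CPM in KO, and each of the other 7 had 0 to 17 reads over the 8 libraries. The lists for sinusoidal endothelium, for cholangiocytes and for portal fibroblasts, mesothelium and adipocytes had 1 row each. These were Prox1 (at most 0.0486 CPM), Pkhd1 (at most 0.0578 CPM) and Cd34 (79.4 to 86.2 CPM in control and 83.4 to 87.3 CPM in KO). Neither Prox1 nor Cd34 is specific to the cells of its list. These rows therefore do not show whether endothelium, portal fibroblasts, mesothelium or adipocytes were present. None of 14 macrophage markers has a row, and the part of other cells in the results was not tested.

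Acsl3 was expressed at a moderate and even level in all 8 libraries. In control replicates 1 to 4 the gene had 1015, 897, 857 and 878 reads, or 52.2, 51.1, 49.5 and 50.3 CPM. In KO replicates 1 to 4 it had 1238, 1400, 1098 and 1077 reads, or 50.6, 54.5, 53.3 and 55.3 CPM. Replicates 2, 3 and 4 of KO lay above every control library, and replicate 1 of KO lay inside the control range, so the groups overlapped. The lowest library of all was control replicate 3 and the highest KO replicate 4.

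**Figure D1:**
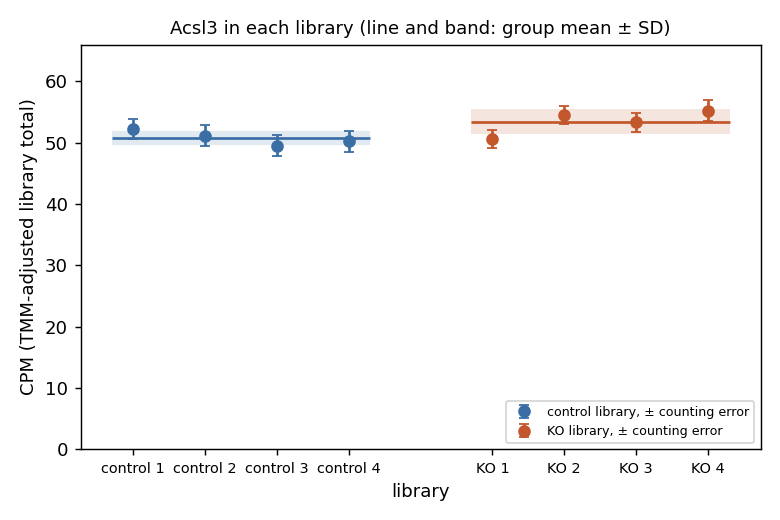
Acsl3 level (CPM, y axis from 0) in each of the 8 libraries (x axis), with bars for counting error and a line and band for each group's mean ± SD. KO replicate 1, at 50.6 CPM, lies within the control range of 49.5 to 52.2 CPM, and the other KO libraries lie above it.

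The group means were 50.8 ± 1.16 CPM in control and 53.4 ± 2.03 CPM in KO (SD, n = 4). The comparison of KO with control, which asks how stellate cells lacking AREL1 differ in their transcriptome, put Acsl3 5.06% higher in KO. This difference did not pass the test (log2 fold change 0.071, SE 0.038, edgeR quasi-likelihood adjusted p = 0.155 over 420 genes, unadjusted p = 0.0743). The two-sided exact permutation p of the CPM values was 0.0857. With TMM, the 95% interval of the difference ran from -0.518% (log2 -0.0075) to 11.0% (log2 0.15). A 2-fold change lies outside it, but the interval does not cover the choice of scaling, on which the estimate depended. Of the 144 genes between 0.5 and 2 times the level of Acsl3, 66 (45.8%) were called, with a median absolute log2 fold change of 0.089 over the 144. In bulk RNA, fewer cells of a type and less RNA per cell cannot be told apart.

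With TMM, the difference in Acsl3 was below the median in size, both over all genes tested and over the genes of like level. Of the 420 genes kept by the filter on low counts, 158 (37.6%) passed at an adjusted p under 0.05, and 0 of 1 member did, with 0 also at an unadjusted p under 0.05 and 0 with DESeq2. The absolute log2 fold change was larger than that of Acsl3 in 271 of the 420 genes, and its median over all of them was 0.119. Genes called higher in KO made up 18.3% and genes called lower 19.3% of those tested. With upper-quartile scaling 69.8% of the called genes were higher in KO, and with library totals alone 60.6%, in place of 48.7% with TMM.

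The call for Acsl3 depended on the scaling. It passed with upper-quartile scaling (log2 fold change 0.12, SE 0.040, edgeR adjusted p = 0.0159) and with library totals alone (0.10, SE 0.040, edgeR adjusted p = 0.0379), and adjusted p ran from 0.0159 to 0.337 over all 19 alternatives. These scalings moved the median of all genes on the log2 scale from 0.0034 with TMM to 0.055 and 0.036. Measured from that median, Acsl3 stood 0.068 higher in KO with each of the 3 scalings. This sameness is built in, because a change of scaling shifts all genes by nearly the same amount. The sign was positive in all 19 alternatives, with log2 fold changes between 0.057 and 0.12. Leaving out KO replicate 1, the lowest KO library, gave a log2 fold change of 0.096 (edgeR adjusted p = 0.0681), the highest among the 8 fits that left out a library. The lowest was 0.057, without KO replicate 2.

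**Figure D2:**
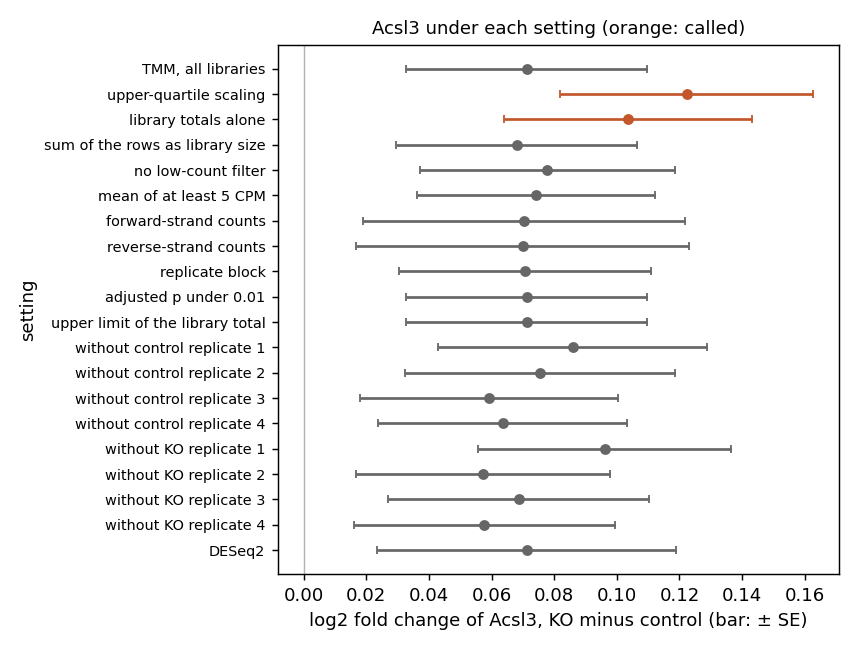
Log2 fold change of Acsl3, KO minus control, with its SE (x axis) under each setting (y axis). Every point lies above 0, and the 2 orange points, upper-quartile scaling at 0.12 and library totals alone at 0.10, are the settings under which Acsl3 was called.

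The spread of Acsl3 between libraries was near what counting alone gives. The coefficient of variation was 2.28% over the control libraries, where the counting error of a single library was 3.14% to 3.42%. In KO it was 3.80%, beside a counting error of 2.67% to 3.05%. Within groups the SD of the log2 level was 0.045, and over the same 144 genes of like level the median was 0.054. The control library that lies apart from its group over many genes, replicate 4, had 50.3 CPM, within the range of the others. Without it the log2 fold change was 0.064 (edgeR adjusted p = 0.191).

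Acsl3 shares part of its locus with Utp14b, a gene for a ribosome biogenesis factor that lies on the same strand. In GENCODE M21, 244 exon bases, 5.6% of the 4357 of Acsl3, are also exon of Utp14b. Reads that fit both genes are counted for neither, and a strand column cannot separate them. Utp14b, named here for this overlap, rose by 17.7%, from 20.2 ± 1.12 CPM in control to 23.7 ± 1.65 CPM in KO (SD, n = 4, edgeR adjusted p = 0.00278). Its groups overlapped too, since KO replicate 4 (21.7 CPM) lay below control replicate 1 (21.8 CPM). Reads on Acsl3 fell evenly on both strand columns, with 48.6% to 51.6% forward. The log2 fold change was 0.070 (SE 0.051) with forward-strand counts alone and 0.070 (SE 0.053) with reverse-strand counts alone.

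Of 320 other genes with a mean of at least 5 CPM, those whose levels followed Acsl3 most closely over the 8 libraries were Bmpr2, Nab1 and Ptpn4. Bmpr2, the type II receptor for bone morphogenetic proteins, had a Pearson r of 0.96 and a Spearman rho of 0.98, and r was 0.93 after centring on the group means. Nab1, a corepressor of EGR transcription factors, had an r of 0.80 (rho 0.79, centred r 0.60). Ptpn4, a protein tyrosine phosphatase, had an r of 0.79 (rho 0.81, centred r 0.83). The points share library and scaling, and these r are the highest of 320, so they are a description only. Bmpr2 stood at 129.7 ± 4.53 CPM in control and, in KO, at 137.5 ± 6.07 CPM (edgeR adjusted p = 0.0419, log2 fold change 0.083, SE 0.032).

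Other lipid genes were taken from 10 lists holding 205 symbols, of which 12 have a row and 9 passed the filter. Of these 9, 1 rose and 3 fell in KO and 5 did not pass the test, a share of 44.4% called beside 37.6% of all genes. The balance of directions depended on the scaling and on 1 library. With upper-quartile scaling 3 rose and 2 fell, and without control replicate 4 there were 3 in each direction. Their median log2 fold change was -0.030, beside 0.0034 over the 420 genes. The other 3 rows were silent or nearly so. The retinoid X receptor gene Rxrg and the lipase inhibitor gene G0s2 had 0 reads over the 8 libraries, which allows up to 0.0185 CPM (3 counts over the 8 libraries, counting error only), and the acyltransferase gene Mogat1 had 2 reads.

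The lists for fatty acid uptake, binding and activation and for lipogenic and PPAR regulators had 1 tested gene each of 29 listed, and neither gene passed. Acbd6, which encodes an acyl-CoA binding protein, stood at 65.7 ± 3.89 CPM in control and, in KO, at 69.3 ± 2.87 CPM (edgeR adjusted p = 0.153, log2 fold change 0.075, SE 0.040). Like Acsl3, Acbd6 passed with upper-quartile scaling (edgeR adjusted p = 0.0146) and with library totals alone (0.0329). It also passed without control replicate 4 (log2 fold change 0.11, edgeR adjusted p = 0.0077). Insig2, which holds SREBP in the endoplasmic reticulum and so restrains lipogenic transcription, stood at 51.4 ± 0.546 and 50.4 ± 0.844 CPM (-0.030, SE 0.036), a difference with a 95% interval from -6.96% to 3.11%.

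Among genes downstream of acyl-CoA, Lpgat1, an acyltransferase of the endoplasmic reticulum that acts on lysophospholipids, fell by 7.26% (edgeR adjusted p = 0.00398). Its levels in control replicates 1 to 4 were 117.4, 116.6, 111.5 and 119.4 CPM, and in KO 107.6, 109.6, 105.8 and 108.2 CPM. The groups did not overlap, as in 31.4% of the 420 genes. The call for Lpgat1 was lost with upper-quartile scaling (log2 fold change -0.058, edgeR adjusted p = 0.133) and with reverse-strand counts (-0.095, edgeR adjusted p = 0.0717), in a range of 0.00269 to 0.133 over the alternatives.

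Aldh9a1, an aldehyde dehydrogenase that makes the precursor of carnitine, the carrier of acyl groups into mitochondria, fell by 11.8% (log2 fold change -0.18, SE 0.042, edgeR adjusted p = 0.00124). Its levels were 53.7, 51.1, 51.0 and 46.3 CPM in control replicates 1 to 4 and 44.6, 45.5, 44.6 and 43.6 CPM in KO. The groups did not overlap, and control replicate 4 lay nearest to KO. Hibch, a mitochondrial hydrolase of valine breakdown placed on the same list, stood at 15.5 ± 1.06 and 15.9 ± 1.29 CPM and did not pass (log2 fold change 0.031, SE 0.070).

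The lipid droplet list had 4 tested genes, of which 1 rose and 1 fell. Rab3gap2, which with Rab3gap1 activates the droplet GTPase RAB18, rose by 9.62% (edgeR adjusted p = 0.000913). Its levels were 112.2, 116.0, 114.2 and 119.2 CPM in control replicates 1 to 4 and 130.5, 128.8, 122.7 and 123.4 CPM in KO, and the groups did not overlap. On the opposite strand, Iars2 covers 18.8% of the exon bases of Rab3gap2. The count of Rab3gap2 leaves out reads in these shared bases, which are counted for neither gene. Its partner Rab3gap1 stood at 116.8 ± 7.04 and 120.7 ± 1.55 CPM (edgeR adjusted p = 0.267, log2 fold change 0.048, SE 0.033). Without control replicate 4, which at 126.9 CPM was the highest of all libraries, Rab3gap1 passed (log2 fold change 0.087, edgeR adjusted p = 0.00784), as it did with upper-quartile scaling (0.099, edgeR adjusted p = 0.0182). Whether Rab3gap1 and Rab3gap2 differ in response was not tested.

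Rab7b, a GTPase of endosomal and Golgi traffic and not a droplet protein in the strict sense, fell by 18.5% to 15.6 ± 0.948 CPM in KO, where the control level was 19.1 ± 2.16 CPM (edgeR adjusted p = 0.00187). The groups overlapped, since KO replicate 3 (16.9 CPM) lay above control replicate 4 (16.6 CPM). Ubxn4, which takes part in the removal of proteins from the endoplasmic reticulum, stood at 180.8 ± 4.84 and 175.9 ± 2.88 CPM and did not pass (log2 fold change -0.040, SE 0.027).

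**Figure D3:**
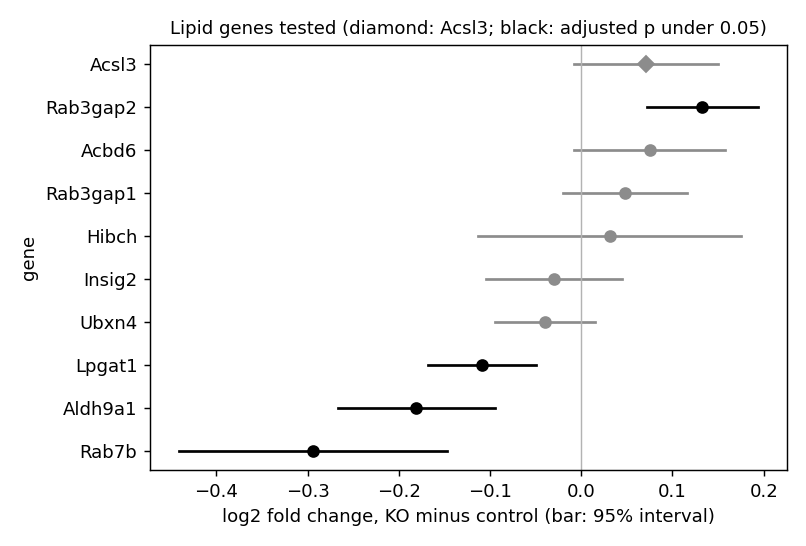
Log2 fold change, KO minus control, with its 95% interval (x axis) for Acsl3 (diamond) and the 9 other lipid genes tested (y axis). Rab3gap2 lies above 0 and Lpgat1, Aldh9a1 and Rab7b below 0, in black for those that passed, and the interval of Acsl3 reaches from -0.0075 to 0.15.

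Per exon length, Acsl3 was in the middle of these genes. Its level was 11.7 ± 0.266 CPM per kb of exon in control and 12.3 ± 0.466 in KO (SD, n = 4), which placed it 112th of 419 genes with a length. Ubxn4 was highest (38.8 ± 1.04 CPM per kb in control), followed by Lpgat1 (15.3 ± 0.443), Aldh9a1 (14.9 ± 0.907) and Insig2 (14.8 ± 0.157). The last 3 were within their spread of each other in control. Just below Acsl3 in control stood Rab3gap2 (10.7 ± 0.274 CPM per kb), Acbd6 (10.2 ± 0.603) and Rab3gap1 (9.95 ± 0.6). Acsl3 and Rab3gap2 were apart in control, at 11.4 to 12.0 and 10.4 to 11.0 CPM per kb, and overlapped in KO, at 11.6 to 12.7 and 11.4 to 12.1. Rab7b and Hibch were lowest, at 4.13 ± 0.468 and 2.56 ± 0.175 CPM per kb in control. Lengths are all exon bases of a gene in GENCODE M21, which need not be the transcripts these cells use. They include bases shared with another gene, where reads are not counted, which lowers the level per kb. Such bases are 18.8% of Rab3gap2 (with Iars2) and 5.6% of Acsl3 (with Utp14b), so the order of Acsl3 and Rab3gap2 is uncertain.

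**Figure D4:**
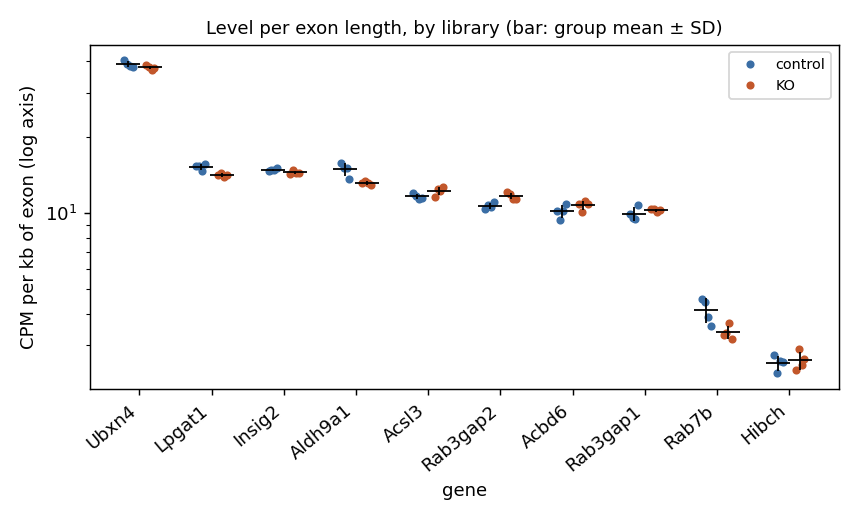
Level per exon length (CPM per kb of exon, log axis) for the 10 lipid genes tested (x axis), with 1 point per library and bars for the group mean ± SD. Acsl3, at 11.7 CPM per kb in control and 12.3 in KO, lies below Insig2 and Aldh9a1 and near Rab3gap2.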

How the data were processed

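Each of the 8 libraries has a deposited table of read counts per gene, whole numbers that the authors made with STAR's gene counting, as its layout shows. It gives separate columns for both strands together, forward and reverse, below 4 rows of unassigned reads. Per the submitters' processing notes, fastp, STAR 2.7.10a and DESeq2 1.38.0 were used, and builds GRCm38 and GRCm39 are both named. Since the annotation used is not given in the sources here, no coordinates are printed. The tables were read here only in part, and an incomplete last line in 7 of them was dropped. Symbols came from a separate reference list of gene names (1830 of 1933 identifiers matched), and GENCODE M21 gave chromosomes, exon lengths and overlaps.

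The rows hold 3.20% to 3.28% of a library. Library size was therefore computed as N_noFeature (forward) + N_noFeature (reverse) - 2 × N_noFeature (both) - N_ambiguous (forward) - N_ambiguous (reverse). This is a lower bound, with an upper bound 2.51% to 2.65% above it. Counts of both strands were used, since reverse to forward reads stood at 0.985 to 1.02.

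Counts were tested in R 4.3.3 with edgeR 4.0.16 (filterByExpr, TMM, robust quasi-likelihood F test, Benjamini-Hochberg over 420 genes, threshold 0.05), after a trial on simulated counts. Library pairs within a group all differed beyond sampling noise (largest chi-square p = 3.68e-07). Groups follow the titles, because the genotype entry of 3 KO samples names AREL with a different number. Alternatives were other scalings, filters, count columns, DESeq2 1.42.0, a replicate block, a stricter threshold and leaving out each library. The members and lists were chosen with earlier results of these data known. Named were members with a row, a gene overlapping a member, lipid genes that passed, the 3 genes of most like pattern and markers at 5 CPM or more. The 5 lipid genes that did not pass and the lower markers fall outside this rule and are named as well, after their values were seen.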

Additional observations from a re-analysis of the deposited data

Results flagged for a closer look

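Levels of Acsl3 and of the 9 other lipid genes, and 5 measures of the libraries, were searched for a single library far from the rest of its group. The criterion was a distance from the next library of over 0.829 of the whole spread, which chance meets in about 1.5 of the 30 groups searched. One group met it. Control replicate 1 had a library total of 19663030 reads, and the other control libraries had 17619387 to 17642249 (0.989 of the spread). Without this library the log2 fold change of Acsl3 was 0.086 (edgeR adjusted p = 0.138). No level of Acsl3 or of the other lipid genes met the criterion in either group.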

How the results depend on the processing

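The upper limit of the library total was added as an alternative after seeing the data. The count of 1 called member in place of 0 came only with upper-quartile scaling and library totals alone, where Acsl3 had log2 fold changes of 0.12 and 0.10. Its other 17 alternatives did not change the call. Of these, the stricter threshold of 0.01 reused the same fit and could not have made a call. The upper limit of the library total gave the same edgeR adjusted p of 0.155. Over the 8 fits without a library, the log2 fold change of Acsl3 was 0.057 to 0.096, the count of called members was 0 and that of other lipid genes 4 to 6. Over all 19 alternatives that last count was 3 to 6 and the count of called genes 108 to 191, against 4 and 158. Replicate numbers occur in both groups, but same-numbered libraries did not deviate together (correlations of -0.092 to 0.067 over 321 genes). With the replicate block 150 genes were called, 0 members and 4 other lipid genes, and Acsl3 had a log2 fold change of 0.071. Without the low-count filter 149 genes were called and Acsl3 had an adjusted p of 0.251. The counting error of about 3% per library limits what can be seen in Acsl3.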
